A study of Mus musculus with 9 samples.

Results

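The 10 genes followed here are ones that microglia and other macrophages are known to express: C1qa, C1qb, C1qc, Csf1r, Aif1, Cx3cr1, P2ry12, Fcer1g, Tyrobp and Trem2. They are 10 of the 23201 genes in the tables, and each was read from the RefSeq transcript with the highest mean level over all libraries. RNA came from mouse cerebral cortex at E13.5, from embryos of the strain mix labelled C57BL/6+C57BL/6J+CBA. There were 3 Sfpq-/- (homozygous) libraries, 3 Sfpq+/- (heterozygous) libraries and 3 control libraries, and the series asks how Sfpq, a nuclear RNA-binding protein, acts on long neuronal genes. The labels name no treatment. The sources used here do not say how the mutant allele was made, in which cells it is lost or which exact genotype the controls have, nor whether microglia themselves lack Sfpq.

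Microglia are the resident macrophages of the brain. They derive from the yolk sac and enter the cortex while its first neurons are forming. Csf1r is the receptor that keeps them alive, and Cx3cr1 and P2ry12 read signals from neurons and from released nucleotides. Trem2 with the adaptor Tyrobp, and Fc receptors with the adaptor Fcer1g, link ligand binding to the kinase Syk. C1qa, C1qb and C1qc encode the chains of C1q, the protein that starts the classical complement pathway, which in the brain is made largely by microglia and tags debris and synapses for removal.

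The labels describe the cells as neural stem cells with neurons, and the macrophage genes were a small part of the RNA. Their values ran between 0.431 and 5.38 RPKM, reads per kilobase of transcript scaled to the reads of the library, while the radial glia gene Fabp7 lay between 711 and 1090 RPKM. All 10 genes passed the filter on low values, set at 0.5 RPKM for the mean of the 9 libraries. In order of mean RPKM over the libraries, C1qa (3.56) and C1qb (3.54) came highest, then Csf1r (2.55), C1qc (2.11), Aif1 (1.92), Tyrobp (1.59), Fcer1g (1.35), Cx3cr1 (1.19), P2ry12 (1.16) and Trem2 (0.64). The order of neighbours with close means was not the same in every genotype: C1qa had the higher mean of the top pair in homozygous and control cortex and C1qb in heterozygous cortex, and P2ry12 was above Cx3cr1 only in heterozygous cortex. Estimated read numbers behind a value ran between 80 and 2310, which puts the counting error of each gene's lowest value at 2.83% to 11.0%. In bulk RNA a gene can be higher because there are more cells of a type or more RNA in each cell, and the libraries cannot tell these apart.

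Sfpq was read first as a check of the labels. Its most abundant transcript, annotated as non-coding, had 26.1, 28.6 and 27.6 RPKM in homozygous cortex, 185, 163 and 169 RPKM in heterozygous cortex and 184, 202 and 218 RPKM in control cortex. The homozygous mean was 13.6% of the control mean (log2 change -2.85 ± 0.07 SE, limma adjusted p = 1.22e-09), and no homozygous library came near the others. The heterozygous mean was 85.6% of control, with overlapping groups and a limma adjusted p of 0.709. The level of this transcript thus separates the homozygous libraries from the rest but does not separate the heterozygous libraries from control. Sfpq has 2 transcripts among the deposited values, and those of the other are not given here. Read from Xist and Y-linked genes, homozygous embryo 1 was female and 2 and 3 were male, all heterozygous embryos were male, and control embryos 1 and 2 were female and 3 was male.

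Upstream sequence from the RefSeq promoter table (GRCm38.p6) is shown for C1qb, Trem2, Aif1 and Fcer1g, which were called higher in homozygous than in control cortex, and for C1qc, the neighbour of C1qb. The windows hold the 250 bases before the annotated start and read 5′ to 3′ on the gene's strand, at chr4:136886201-136886450 (minus strand) for C1qb, chr4:136892915-136893164 (minus strand) for C1qc, chr17:48346151-48346400 (plus strand) for Trem2, chr17:35176053-35176302 (minus strand) for Aif1 and chr1:171234350-171234599 (minus strand) for Fcer1g. Capitals mark GAGGAA on either strand (TTCCTC on the other), the core that the macrophage transcription factor PU.1 prefers.
C1qb: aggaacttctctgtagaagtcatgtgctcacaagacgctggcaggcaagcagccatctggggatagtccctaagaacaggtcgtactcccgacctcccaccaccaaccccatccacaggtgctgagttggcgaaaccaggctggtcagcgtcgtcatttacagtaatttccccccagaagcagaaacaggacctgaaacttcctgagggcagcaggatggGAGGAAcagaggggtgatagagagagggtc
C1qc: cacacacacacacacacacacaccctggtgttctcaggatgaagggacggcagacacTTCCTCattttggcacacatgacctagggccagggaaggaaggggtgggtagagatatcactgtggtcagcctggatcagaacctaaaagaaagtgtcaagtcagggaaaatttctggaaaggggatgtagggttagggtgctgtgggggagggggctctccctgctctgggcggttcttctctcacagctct
Trem2: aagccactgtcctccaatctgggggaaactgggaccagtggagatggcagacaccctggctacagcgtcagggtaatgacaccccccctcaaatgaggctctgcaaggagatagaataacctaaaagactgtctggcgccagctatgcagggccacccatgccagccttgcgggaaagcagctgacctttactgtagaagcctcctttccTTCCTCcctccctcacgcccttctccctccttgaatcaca
Aif1: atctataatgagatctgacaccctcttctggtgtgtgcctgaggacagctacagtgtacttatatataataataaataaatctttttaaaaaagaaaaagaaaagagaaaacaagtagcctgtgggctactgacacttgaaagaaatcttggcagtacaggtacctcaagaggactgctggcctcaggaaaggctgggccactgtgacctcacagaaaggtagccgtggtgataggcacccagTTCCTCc
Fcer1g: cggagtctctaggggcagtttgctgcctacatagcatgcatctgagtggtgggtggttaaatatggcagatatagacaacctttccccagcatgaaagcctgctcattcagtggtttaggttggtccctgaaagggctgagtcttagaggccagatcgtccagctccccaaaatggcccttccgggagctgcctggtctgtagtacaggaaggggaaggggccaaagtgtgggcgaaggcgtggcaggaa
The core stands at -30 in C1qb, -193 in C1qc, -40 in Trem2 and -7 in Aif1, counted from its first base in the window to the start, and Fcer1g has none. Cx3cr1 and P2ry12 also have an entry and no match, so 4 of 7 members with an entry hold it, against 23.3% of 32851 promoters in the table. TGANTCA, the AP-1 motif, was found in Trem2 alone of the 7 members (6.75% of all promoters), and TATAAA in 0 of 7 (12.4%). No entry was matched for C1qa, Csf1r and Tyrobp. A match of letters is a description of the window, and the start in the table need not be the one used in these cells. For C1qb and P2ry12, the bases just after that start were not found in the GENCODE transcript.

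Of the C1q genes, C1qa and C1qb were called higher in homozygous than in control cortex and C1qc was not. C1qa, the A chain, had 4.9, 3.75 and 5.38 RPKM in homozygous cortex, 2.61, 2.71 and 3.26 RPKM in heterozygous cortex and 3.16, 3.1 and 3.17 RPKM in control cortex. Every homozygous value was above every other value, and the control values were almost equal to each other. The homozygous mean was 4.67 ± 0.838 RPKM and the control mean 3.14 ± 0.0389 RPKM (SD, n = 3 each), a rise to 149% of control (log2 change 0.49 ± 0.12 SE, limma adjusted p = 0.00719). A log2 change here is a difference of log2(RPKM + 0.5), which understates the change of low genes, and the p-value was adjusted over all 12159 genes tested.

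For C1qb, the B chain, the homozygous libraries had 3.98, 4.02 and 4.99 RPKM, the heterozygous libraries 3.22, 2.95 and 3.88 RPKM and the control libraries 2.97, 2.83 and 3.01 RPKM. Homozygous cortex again lay above both other genotypes in all libraries, and its mean was 147% of control (log2 change 0.48 ± 0.11 SE, adjusted p = 0.00436). C1qc, the C chain, had 2.08, 2.19 and 3.15 RPKM in homozygous cortex, 1.95, 1.78 and 2.44 RPKM in heterozygous cortex and 1.61, 1.88 and 1.92 RPKM in control cortex. The homozygous and control groups did not overlap here either, but the homozygous libraries were spread widely and the difference missed the threshold of 0.05 (log2 change 0.35 ± 0.14 SE, adjusted p = 0.0686). A chain-to-chain comparison on the RPKM scale gave C1qa at 1.23, 0.93 and 1.08 times C1qb in the homozygous libraries, 0.81, 0.92 and 0.84 times in the heterozygous libraries and 1.06, 1.09 and 1.05 times in the control libraries. The ratio was lowest in heterozygous cortex, and the homozygous and control ratios overlapped.

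**Figure D1:**
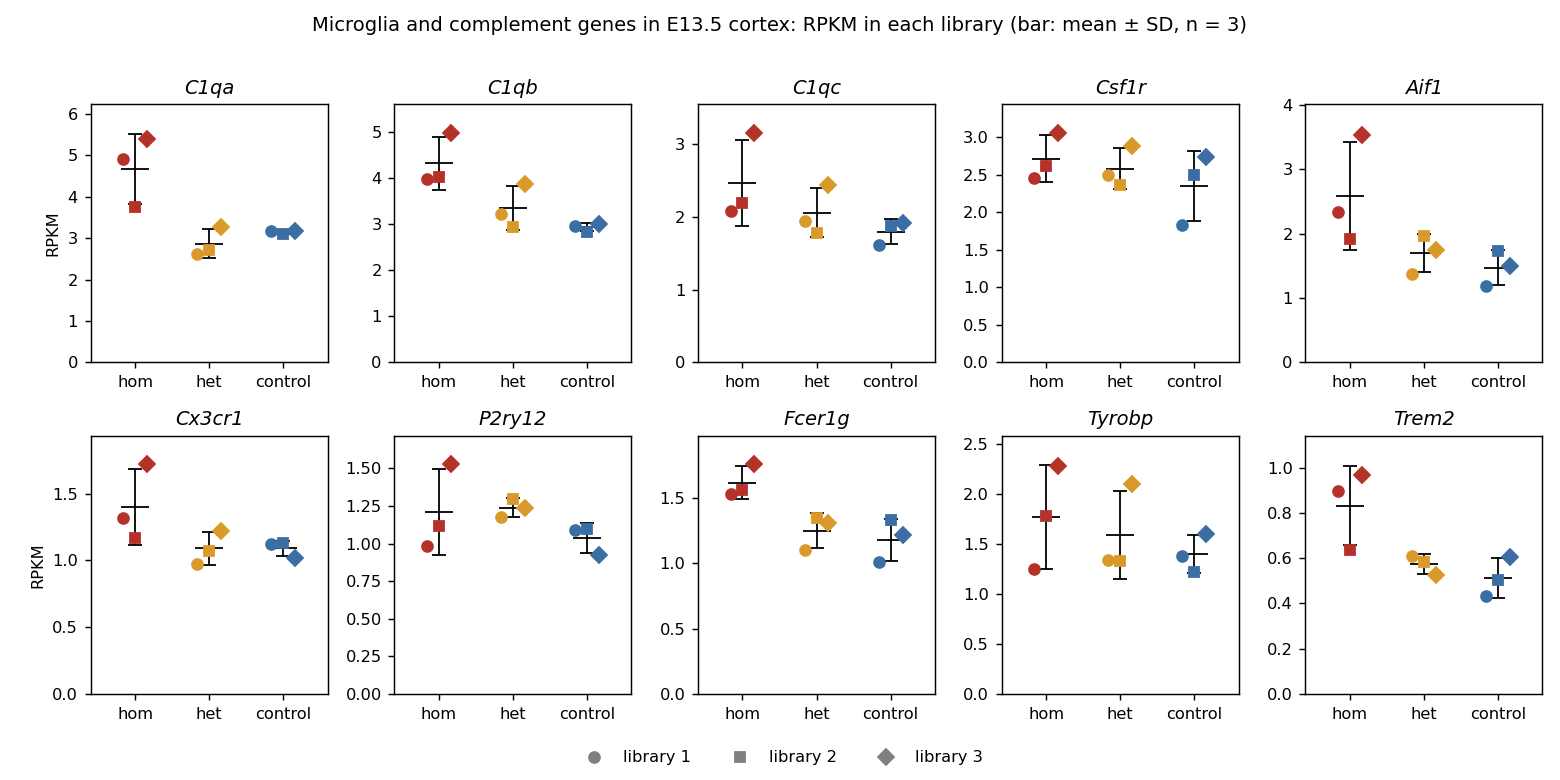
RPKM of each gene (y axis, from 0) in the 3 homozygous (hom), 3 heterozygous (het) and 3 control libraries (x axis), with 1 point a library, its number given by the symbol, and bars for the mean ± SD. Homozygous library 3, the diamond at the left, is the highest of the 9 libraries in all 10 panels.

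Of the surface receptors, Trem2 was the one that passed the test. Trem2, which binds lipids and apolipoproteins, had 0.896, 0.635 and 0.968 RPKM in homozygous cortex, 0.611, 0.582 and 0.525 RPKM in heterozygous cortex and 0.431, 0.503 and 0.607 RPKM in control cortex. Its homozygous values were all higher than the rest, though homozygous library 2 exceeded heterozygous library 1 and control library 3 only slightly. The homozygous mean was 162% of control (log2 change 0.39 ± 0.11 SE, adjusted p = 0.0156), at the lowest level and with the fewest reads of the 10 genes.

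Csf1r did not follow it. The receptor had 2.46, 2.62 and 3.06 RPKM in homozygous cortex, 2.49, 2.36 and 2.88 RPKM in heterozygous cortex and 1.83, 2.49 and 2.73 RPKM in control cortex. The groups overlapped, with 1 low control library, and the change was 0.18 ± 0.12 (log2, SE; adjusted p = 0.299). Csf1r had the most reads of the 10 genes, so counting error is smallest there.

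Cx3cr1, the receptor for the neuronal ligand Cx3cl1, had 1.32, 1.17 and 1.72 RPKM in homozygous cortex, 0.97, 1.07 and 1.22 RPKM in heterozygous cortex and 1.12, 1.13 and 1.02 RPKM in control cortex. The homozygous values did not overlap the control values, yet the lowest of them was only just above, and the test was not passed (log2 change 0.25 ± 0.11 SE, adjusted p = 0.104). P2ry12, the ADP receptor that guides microglial processes, had 0.982, 1.12 and 1.53 RPKM in homozygous cortex, 1.18, 1.3 and 1.24 RPKM in heterozygous cortex and 1.09, 1.1 and 0.924 RPKM in control cortex. It overlapped between homozygous and control cortex (log2 change 0.14 ± 0.11 SE, adjusted p = 0.366), and here the heterozygous libraries were the ones that all lay above control.

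The adaptors and Aif1 differed in the same way as the receptors, some past the test and some not. Fcer1g, the gamma chain shared by Fc receptors, had 1.53, 1.56 and 1.76 RPKM in homozygous cortex, 1.1, 1.35 and 1.31 RPKM in heterozygous cortex and 1.01, 1.33 and 1.22 RPKM in control cortex. All homozygous values were higher than all others, with the smallest spread among homozygous libraries of the 10 genes (coefficient of variation 7.9%), and the mean was 137% of control (log2 change 0.33 ± 0.10 SE, adjusted p = 0.0202). Tyrobp, the partner adaptor of Trem2 also called DAP12, had 1.25, 1.78 and 2.28 RPKM in homozygous cortex, 1.34, 1.33 and 2.1 RPKM in heterozygous cortex and 1.38, 1.22 and 1.6 RPKM in control cortex. Its values overlapped throughout, with the third library high in each genotype (log2 change 0.24 ± 0.18 SE, adjusted p = 0.335).

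Aif1, which encodes the actin-binding protein Iba1 used to stain microglia, had the largest change of the 10 genes and also the widest spread. It had 2.34, 1.92 and 3.53 RPKM in homozygous cortex, 1.38, 1.97 and 1.75 RPKM in heterozygous cortex and 1.19, 1.73 and 1.5 RPKM in control cortex. Homozygous library 3 was far above the other homozygous libraries, and homozygous library 2 fell within the heterozygous range. The homozygous mean was 176% of control (log2 change 0.63 ± 0.18 SE, adjusted p = 0.018), with a coefficient of variation of 32.2% among the homozygous libraries.

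In all, 5 of the 10 genes were called higher in homozygous than in control cortex and 0 lower, while 14.4% of all 12159 genes tested were called higher and 19.9% lower. Among the 3790 genes with a mean level in the range of the 10 genes, 14.1% were called higher, and among the 8432 genes whose genomic span was no longer than that of the longest of them, 15.1% were. The 10 genes span 2.93 to 46.7 kb on GRCm38. In 7 of the 10 the homozygous values all lay above the control values, against 20.6% of all genes tested. The log2 change was positive in 10 of 10 genes with a median of 0.34, and the median of all genes was -0.01. An exact permutation test of a single gene cannot go below p = 0.1 with 3 libraries against 3, and it gave 0.1 for each of the 7 genes without overlap.

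**Figure D2:**
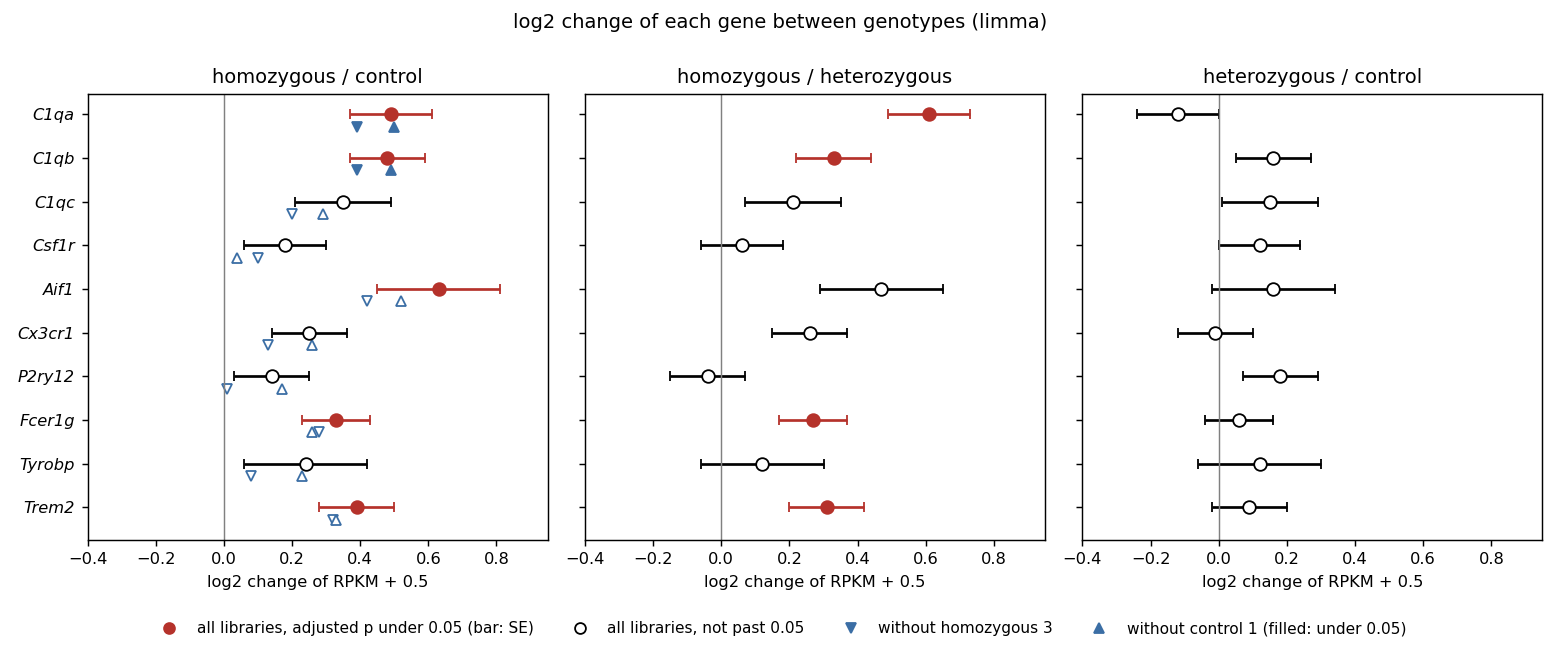
Log2 change of RPKM + 0.5 (x axis, circles, bars for the SE) of each gene (y axis) in homozygous against control, homozygous against heterozygous and heterozygous against control cortex. Filled red circles have an adjusted p under 0.05, and blue triangles give the homozygous against control change without homozygous library 3 or without control library 1, filled only for C1qa and C1qb, the genes still called.

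How much the libraries weighed differed between the genes. Homozygous library 3 was the highest of the 9 libraries in 10 of 10 genes, as it was in 21.3% of all genes tested, and control library 1 was the lowest in 5 of 10, as it was in 17.8% of all genes tested. The summed level of the 10 genes was 21.7, 20.8 and 28.4 RPKM in the homozygous libraries, 16.8, 17.4 and 20.6 RPKM in the heterozygous libraries and 15.8, 17.3 and 17.7 RPKM in the control libraries. The mean difference from the control mean, over the 10 genes, was 0.25, 0.22 and 0.58 on the log2 scale in the homozygous libraries, 0.00, 0.06 and 0.21 in the heterozygous libraries and -0.08, 0.03 and 0.05 in the control libraries. All 3 homozygous libraries were therefore above all control libraries on both scales, with library 3 well above the other two and heterozygous library 3 close to homozygous library 2.

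Without homozygous library 3, C1qa (log2 change 0.39, adjusted p = 0.0301) and C1qb (0.39, adjusted p = 0.0176) were the 2 of 10 genes still called, and 10.1% of all genes were called higher. Aif1 then had a change of 0.42 with an adjusted p of 0.0568, Fcer1g of 0.28 with an adjusted p of 0.073 and Trem2 of 0.32 with an adjusted p of 0.0608. Without control library 1 the same pair was called, C1qa with 0.50 (adjusted p = 0.0179) and C1qb with 0.49 (adjusted p = 0.0113), while Aif1 (0.52, adjusted p = 0.0622), Fcer1g (0.26, adjusted p = 0.0742) and Trem2 (0.33, adjusted p = 0.0551) were not, and 10.9% of all genes were called higher. With both libraries left out, C1qb alone passed (0.40, adjusted p = 0.0308), C1qa had 0.40 with an adjusted p of 0.0508, and the median change of the 10 genes was 0.17, against -0.05 over all genes. Trem2 was also lost without homozygous library 1 (0.32 to 0.35 over its lost calls, adjusted p 0.0551 to 0.0608). Csf1r, P2ry12 and Tyrobp came close to no change without homozygous library 3, with log2 changes of 0.10, 0.01 and 0.08. C1qb was called in 22 of 22 other settings and C1qa in 21 of 22, and with the sex of the embryo in the model the same 5 genes were called against control.

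**Figure D3:**
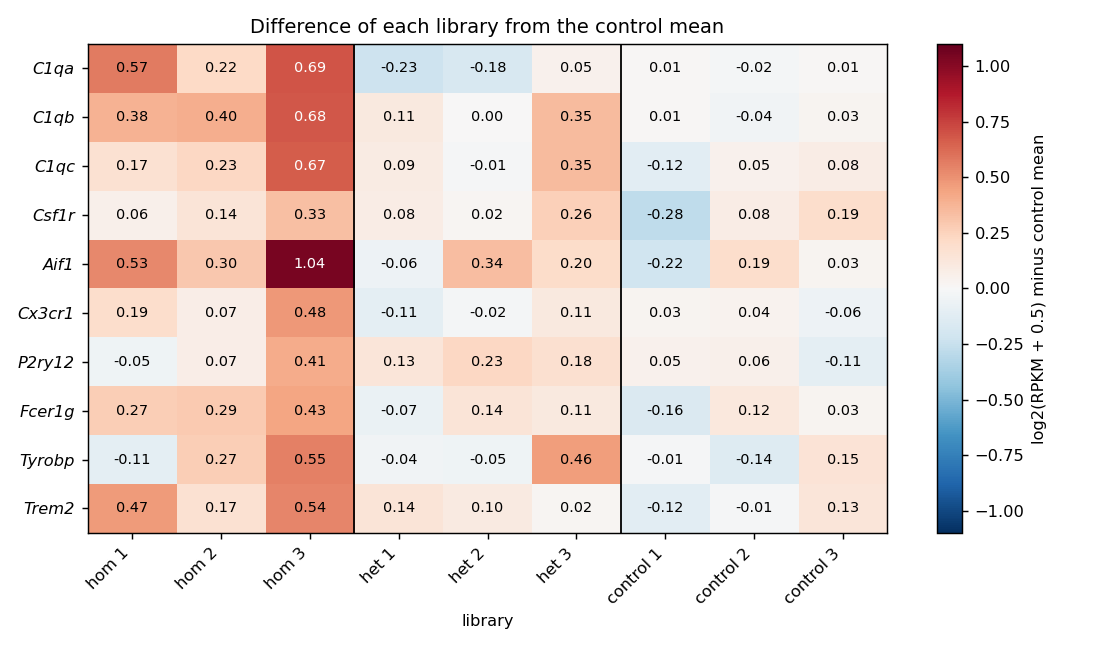
Difference of each library (x axis) from the mean of the control libraries in log2(RPKM + 0.5), for each gene (y axis), with red for higher and blue for lower. The column of homozygous library 3 is the darkest, from 0.33 in Csf1r to 1.04 in Aif1, and every row but those of P2ry12 and Tyrobp is positive in all 3 homozygous libraries.

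The genes also varied together across libraries to different degrees. Over the 9 libraries, Pearson's correlation of a gene's log2(RPKM + 0.5) with the mean of the other 9 genes was highest for C1qc (0.949), Aif1 (0.916) and C1qb (0.915), and lowest for Tyrobp (0.678) and P2ry12 (0.527). These values are a description, since the libraries share the genotype difference and the weight of homozygous library 3. The summed C1q chains were 4.46, 3.80 and 4.41 times Csf1r on the RPKM scale in the homozygous libraries, 3.12, 3.15 and 3.33 times in the heterozygous libraries and 4.22, 3.13 and 2.97 times in the control libraries. Homozygous cortex thus had more C1q RNA per Csf1r RNA than heterozygous cortex in every library, while control library 1, where Csf1r was lowest, had a ratio inside the homozygous range.

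Heterozygous cortex gave no call against control. With limma, 0 of 10 genes and 0 of all 12159 genes (0%) passed the adjusted threshold, and at an unadjusted p under 0.05 the counts were 0 of 10 genes and 699 of all genes (5.75%). The 10 log2 changes had a median of 0.12, and 8 of 10 were positive. The largest was that of P2ry12, at 0.18 ± 0.11 (SE, adjusted p = 0.945), the one gene whose heterozygous libraries all lay above control, as in 3.54% of all genes. C1qa had the lowest, at -0.12 ± 0.12 (SE, adjusted p = 0.978). The standard errors of the 10 changes were 0.10 to 0.18, so a change of the size of the one in C1qc, 0.15, was not detectable with these libraries.

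Homozygous against heterozygous cortex called 4 of the 10 genes higher and 0 lower, against 14.6% of all genes higher and 18.3% lower, and in 4 of 10 the groups did not overlap, against 22.5% of all genes. C1qa had the largest difference, with a homozygous mean at 163% of the heterozygous mean (log2 change 0.61 ± 0.12 SE, adjusted p = 0.00205), and it was called in 22 of 22 other settings. C1qb (0.33 ± 0.11, adjusted p = 0.0331), Trem2 (0.31 ± 0.11, adjusted p = 0.0482) and Fcer1g (0.27 ± 0.10, adjusted p = 0.0492) passed narrowly. Without homozygous library 3 only C1qa was called. The C1qb call was also lost without heterozygous library 1 or 2 (0.23 to 0.31 over the lost calls, adjusted p 0.0897 to 0.134), the Trem2 call without any heterozygous library, homozygous library 1 or control library 2 (0.23 to 0.33, adjusted p 0.0694 to 0.161), and the Fcer1g call without any library but control library 1 (0.21 to 0.31, adjusted p 0.0552 to 0.166). With sex in the model, where all heterozygous embryos were male, the Trem2 call was lost as well and 3 of 10 genes were called. Aif1 had 0.47 ± 0.18 (adjusted p = 0.064), and P2ry12, with -0.04 ± 0.11 (adjusted p = 0.824), was the one gene with a negative value. The same homozygous libraries enter this comparison and the one with control.

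Further genes of the same biology were taken from lists. Of 29 other microglia and macrophage genes in the tables, 16 passed the filter, and 2 of these were called higher and 3 lower in homozygous than in control cortex, with a median log2 change of 0.15. Both shares are near those of all genes tested, 14.4% higher and 19.9% lower, so the count does not set this list apart. In 10 of the 16, homozygous library 3 was the highest of the 9 libraries, against 21.3% of all genes tested. Adgre1, which encodes the macrophage antigen F4/80, had 2.1, 2.27 and 2.44 RPKM in homozygous cortex, 1.71, 1.87 and 2.07 RPKM in heterozygous cortex and 1.71, 1.82 and 1.85 RPKM in control cortex. Its change was 0.27 ± 0.08 (log2, SE; adjusted p = 0.0259), and the call was lost without homozygous library 2 or 3 or control library 1 or 2 (0.23 to 0.28, adjusted p 0.0591 to 0.0915).

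Genes called lower include ones that are not specific to macrophages. Sall1, which marks microglia among macrophages but is also expressed by neural progenitors, fell by 0.51 (SE 0.13, adjusted p = 0.0115) and had a homozygous mean at 67.5% of control. Coro1a, an actin regulator of leukocytes and neurons, fell by 0.22 (SE 0.06, adjusted p = 0.0145), a call lost without homozygous library 2 (-0.17, adjusted p = 0.0535). Tmem119 (0.11 ± 0.13, adjusted p = 0.54), Irf8 (0.22 ± 0.13, adjusted p = 0.239), Fcrls (0.32 ± 0.12, adjusted p = 0.0588), Gpr34 (0.25 ± 0.12, adjusted p = 0.12) and Ctss (0.25 ± 0.12, adjusted p = 0.121), further microglia genes named here after their values were seen, were not called.

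The tested genes listed as signalling partners of Trem2, Tyrobp and Fcer1g were, like these 3 genes, highest in homozygous library 3. Of 21 genes listed for this ITAM pathway (named for the motif in the adaptors that recruits Syk) 6 passed the filter, among them Fcgr3, which is also in the microglia and macrophage list. In homozygous against control cortex 2 were called higher and 0 lower, against 14.4% of all genes higher and 19.9% lower, and the median log2 change was 0.21. Homozygous library 3 was the highest of the 9 libraries in 6 of 6, as it was in 21.3% of all genes tested. Ptpn6, a phosphatase that restrains the pathway, had 1.41, 1.49 and 1.78 RPKM in homozygous cortex, 1.31, 1.05 and 1.22 RPKM in heterozygous cortex and 0.862, 1 and 1.32 RPKM in control cortex (log2 change 0.41 ± 0.12 SE, adjusted p = 0.0191). Sirpa, the receptor for Cd47, had 5.5, 5.6 and 7.03 RPKM in homozygous cortex, 4.51, 4.45 and 5.17 RPKM in heterozygous cortex and 4.06, 4.6 and 5.39 RPKM in control cortex (0.34 ± 0.11, adjusted p = 0.0398). Both calls were lost without homozygous library 3 and without control library 1 or 2, and that of Sirpa also without heterozygous library 2 (Ptpn6: 0.31 to 0.38, adjusted p 0.0661 to 0.0734; Sirpa: 0.23 to 0.34, adjusted p 0.052 to 0.149). Syk itself had 0.423, 0.58 and 0.757 RPKM in homozygous cortex, 0.541, 0.416 and 0.523 RPKM in heterozygous cortex and 0.474, 0.52 and 0.535 RPKM in control cortex, with overlapping groups (0.10 ± 0.11, adjusted p = 0.544).

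Downstream of C1q, most of the complement cascade was below the filter. Of 28 other complement genes, 22 were below the filter, among them C1ra, which encodes a protease bound to C1q and reached at most 0.0694 RPKM, and C6, C8a and Cfd were listed at 0 in all 9 libraries. Cr1l, a membrane inhibitor of complement also called Crry, had 7.86, 8.6 and 8.65 RPKM in homozygous cortex, 6.65, 7.33 and 7.8 RPKM in heterozygous cortex and 6.82, 6.7 and 6.19 RPKM in control cortex, and rose by 0.33 ± 0.07 (log2, SE; adjusted p = 0.00567). Masp1, a protease of the lectin pathway, had 6.56, 6.81 and 7.09 RPKM in homozygous cortex, 10.1, 10.9 and 11.6 RPKM in heterozygous cortex and 9.69, 9.82 and 12.4 RPKM in control cortex, and fell by 0.60 (SE 0.09, adjusted p = 0.0005). These were the calls among the 6 tested genes, 1 higher and 1 lower, in homozygous against control cortex, where 14.4% of all genes were called higher and 19.9% lower.

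Ligands and niche signals of microglia, made mostly by other cells, included Cx3cl1. Among all listed genes that passed the filter, it had the largest rise in log2(RPKM + 0.5) in homozygous against control cortex. Of 14 tested genes 5 were called higher and 2 lower, against 14.4% of all genes higher and 19.9% lower, with a median log2 change of 0.08. Cx3cl1, the membrane-bound ligand of Cx3cr1 made by neurons, had 1.16, 1.02 and 1.27 RPKM in homozygous cortex, 0.426, 0.422 and 0.403 RPKM in heterozygous cortex and 0.477, 0.407 and 0.466 RPKM in control cortex. The homozygous libraries were far above the others, at 256% of the control mean (log2 change 0.80 ± 0.08 SE, adjusted p = 2.14e-05), while its receptor was not called. Cd47, the signal against engulfment that binds Sirpa, rose by 0.35 ± 0.08 (log2, SE; adjusted p = 0.00616), with 6.17, 5.61 and 6.34 RPKM in homozygous cortex and 4.61, 4.6 and 4.71 RPKM in control cortex. Cxcr4, a chemokine receptor, rose by 0.59 ± 0.06 (log2, SE; adjusted p = 3.78e-05) and Tgfbr1, a receptor of the cytokine that microglia need to mature, by 0.26 ± 0.05 (adjusted p = 0.00335).

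Cd200, the neuronal ligand that restrains microglia, rose by 0.48 ± 0.12 (log2, SE; adjusted p = 0.00833), and Entpd1, which clears the nucleotides that P2ry12 detects, fell by 0.29 (SE 0.08, adjusted p = 0.0175); both are named after their values were seen, and Entpd1 was lost without homozygous library 2 or control library 2 (-0.28 to -0.23, adjusted p 0.0585 to 0.0651). Ackr3, the scavenger receptor for the ligand of Cxcr4, fell by 0.47 (SE 0.11, adjusted p = 0.00663). Csf1, a ligand of Csf1r, had 0.811, 0.855 and 0.895 RPKM in homozygous cortex, 0.654, 0.686 and 0.762 RPKM in heterozygous cortex and 0.668, 0.694 and 1.01 RPKM in control cortex. Ligand and receptor alike overlapped between homozygous and control cortex (Csf1: 0.08 ± 0.10, adjusted p = 0.605).

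Calls among genes for clearing dying cells and for activated microglia were few and in both directions, against 14.4% of all genes called higher and 19.9% lower. Of 17 tested clearance genes 1 was called higher and 2 lower, namely Gulp1, an engulfment adaptor, which fell by 0.85 (log2, SE 0.11, adjusted p = 0.000164), Mfge8, a bridge between dying cells and phagocytes, which fell by 0.28 (SE 0.08, adjusted p = 0.0205), and Itgav, an integrin chain that binds that bridge, which rose by 0.30 ± 0.10 (adjusted p = 0.0312). The Mfge8 call was lost without homozygous library 1 or 3 or control library 3 (-0.27 to -0.19, adjusted p 0.0547 to 0.0719), and the Itgav call without homozygous library 2 or 3 or control library 1 or 2 (0.24 to 0.33, adjusted p 0.0544 to 0.104). The clearance receptor Mertk had -0.05 ± 0.10 (adjusted p = 0.761). Of 20 genes listed for activated microglia 9 were below the filter, and of the 11 tested 2 were called higher and 1 lower. The lysosomal protease Ctsd had 61.1, 57.1 and 71.7 RPKM in homozygous cortex, 51.2, 48.5 and 52.8 RPKM in heterozygous cortex and 45.3, 46.6 and 54.2 RPKM in control cortex, with a change of 0.37 ± 0.09 (log2, SE; adjusted p = 0.00709). Cd63, a lysosomal membrane protein, rose by 0.28 ± 0.07 (adjusted p = 0.00714), Fabp5, also a gene of progenitors, fell by 0.21 (SE 0.07, adjusted p = 0.0434), a call lost under both other scalings and without homozygous library 1 or 2, heterozygous library 3 or any control library (-0.24 to -0.15, adjusted p 0.0575 to 0.155), and Spp1 had 0.28 ± 0.22 (adjusted p = 0.352). Ctsd and Cd63 are lysosomal genes that most cells of the cortex express.

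**Figure D4:**
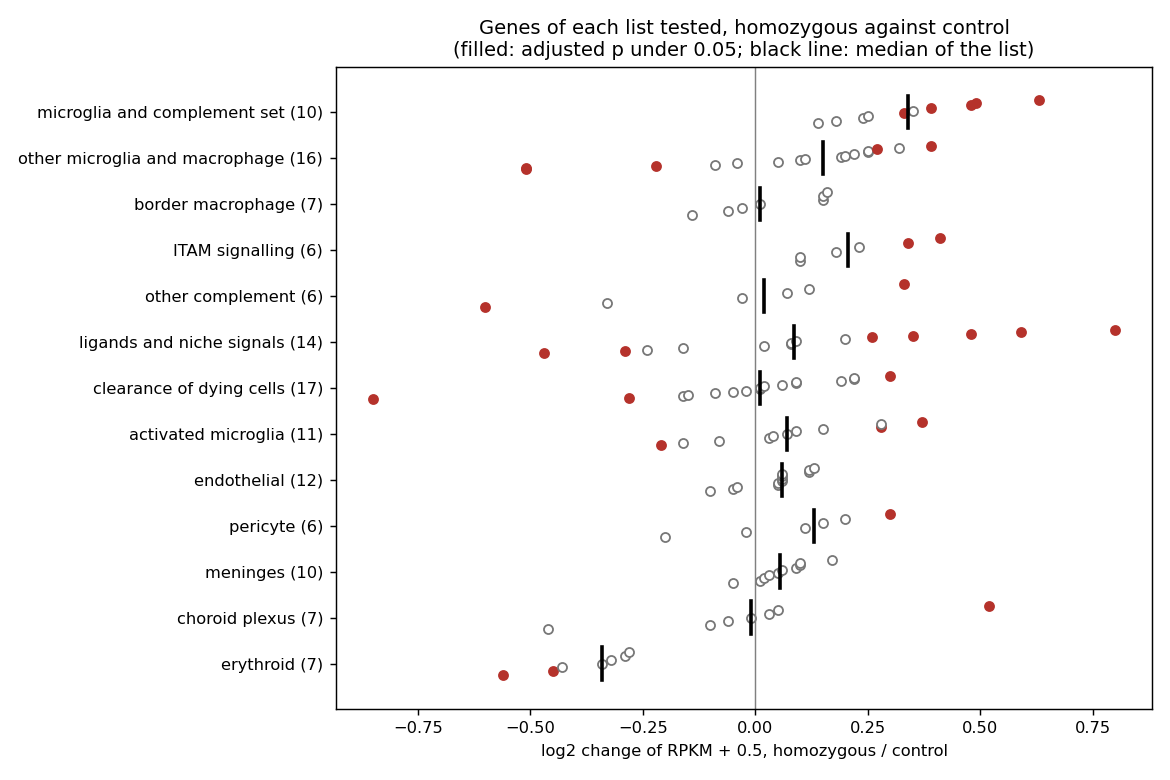
Log2 change of RPKM + 0.5 in homozygous against control cortex (x axis) of each tested gene of each list (y axis, number tested in parentheses), with filled red points for an adjusted p under 0.05 and a black line at the list's median. The 10 genes followed here have a median of 0.34 and no value below 0. The ITAM signalling list also has no value below 0, with a median of 0.21. The other microglia and macrophage list has a median of 0.15 with values on both sides of 0, and the border macrophage list a median of 0.01 and no call.

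Markers of neighbouring cells were set beside these results. Border macrophages, which live in the meninges and around vessels and share many genes with microglia, had 0 of 7 tested genes called, and 0 at an unadjusted p under 0.05. Mrc1, their best known marker, had 6.54, 8.11 and 8.73 RPKM in homozygous cortex, 6.18, 6.95 and 7.98 RPKM in heterozygous cortex and 5.18, 7.81 and 8.18 RPKM in control cortex (log2 change 0.15 ± 0.16 SE, adjusted p = 0.507). The summed level of the 12 border macrophage genes ran between 22.1 and 27.6 RPKM in homozygous cortex, between 21.1 and 24.6 RPKM in heterozygous cortex and between 19.3 and 26.7 RPKM in control cortex. This sum was lowest in library 1 within each genotype, and it was highest of the 9 in homozygous library 3, where the 10 microglia and complement genes were also highest. The part of this in the differences was not tested.

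Endothelial cells (0 of 12 genes called) and meninges (0 of 10) had no call and no unadjusted p under 0.05, and their summed levels overlapped between the genotypes, at 87 to 110 RPKM in homozygous cortex, 85.4 to 92.7 RPKM in heterozygous cortex and 83 to 105 RPKM in control cortex for endothelium. Control library 1 was the lowest of the 9 libraries in 7 of 10 meningeal genes and 6 of 12 endothelial genes, and homozygous library 3 was the highest in 4 of 12 endothelial genes. The part of these differences in the results that rest on either library was not tested. Among other leukocytes, the T cell gene Cd3e, the B cell gene Ms4a1, the natural killer cell gene Ncr1 and the mast cell gene Mcpt4 were listed at 0 in all 9 libraries, and 0 of 4 tested genes were called. All 7 tested red cell genes had a negative change in homozygous against control cortex, with a median of -0.34 on the log2 scale, and in heterozygous against control cortex the median was -0.34 too, again with 0 of 7 positive. Their summed level was 1511 to 1936 RPKM in homozygous cortex, 1469 to 2133 RPKM in heterozygous cortex and 1839 to 2457 RPKM in control cortex, and their part in the results was not tested. In homozygous against control cortex 0 of the 7 were called higher and 2 lower (among them Slc4a1, lost without homozygous library 1 or 3 or control library 2 or 3, with adjusted p up to 0.102). Of 6 pericyte genes 1 was called higher (Rgs5, 0.30 ± 0.10, adjusted p = 0.038, lost without homozygous library 3, heterozygous library 2 or 3 or control library 1 or 2, with 0.19 to 0.3 and an adjusted p of 0.0503 to 0.136) and of 7 choroid plexus genes 1 higher (Otx2, 0.52 ± 0.13, adjusted p = 0.0117).

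Genes of the cortical cells were also called in both directions. Of 16 genes of cortical progenitors and neurons, 3 were called higher and 5 lower in homozygous against control cortex, where 14.4% of all genes were higher and 19.9% lower. Among those lower were Emx1, a regulator of dorsal cortex, which fell by 0.62 (SE 0.09, adjusted p = 0.000433), and Neurod6, a gene of excitatory neurons, which fell by 0.62 (SE 0.11, adjusted p = 0.00123). Fabp7, a gene of radial glia, fell by 0.43 (SE 0.07, adjusted p = 0.000647). Those higher were Vim, an intermediate filament of radial glia, which rose by 0.31 ± 0.06 (adjusted p = 0.00139), and the neuronal genes Tbr1 (0.31, adjusted p = 0.0103) and Dcx (0.23, adjusted p = 0.029), so genes of radial glia and of neurons were called in either direction. Tbr1 and Dcx are named after their values were seen. RPKM is a share of the library, so a change in the cortical cells can shift the level of every other gene. Under quantile normalization the calls over all genes were 2568 higher and 2167 lower, against 1747 higher and 2423 lower with the deposited values, and 7 of the 10 microglia and complement genes were called higher, with C1qc and Cx3cr1 in addition. Under median-ratio scaling 6 of 10 were called, with C1qc in addition, and none of the 10 changed direction in homozygous against control cortex under either scaling.

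C1qb, C1qc and C1qa lie next to each other on chromosome 4, the chromosome that also carries Sfpq. There were 126 tested genes between Sfpq and the C1q genes, of which 8.73% were called higher and 15.9% lower, and of the 40 tested genes nearest to the C1q genes 12.5% were called higher and 20% lower. Over the 772 tested genes of chromosome 4 the shares were 14.5% and 19.9%, near those of all genes.

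The genes most like the 10 across the 9 libraries were sought by the correlation of their log2(RPKM + 0.5) with the mean z-score of the 10. The closest were Parp8 (Pearson's r = 0.971), Nkapd1 (0.966), Slc16a14 (0.965), Ppp1r13b (0.958), Pin4 (0.957), Trip4 (0.955), Tmem100 (0.954) and Zfp346 (0.951). None of them is in the lists of microglia or other cell types. Tmem100, for example, had 3.41, 3.24 and 4.36 RPKM in homozygous cortex, 2.48, 2.43 and 2.77 RPKM in heterozygous cortex and 2.02, 2.61 and 2.63 RPKM in control cortex, highest in homozygous library 3 as the 10 genes are. With 9 libraries that share a genotype difference, such values describe likeness only.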

How the data were processed

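RNA from the cortex of 9 embryos was sequenced after ribosomal RNA removal, with libraries that keep strand, per the labels' protocols. CASAVA 1.8.2 and TopHat 1.4.1 with the build mm9 were used, per the submitters' processing notes. The authors deposited 1 table of RPKM values per library, for 30978 RefSeq transcripts. The sources used here do not name the program behind the RPKM values or say how it handled strand and reads with several places, so values of overlapping genes are uncertain. The deposited values hold no counts. Low values lay within 0.1 of a whole read in 63.4% to 67.8% of cases, with lengths from GENCODE M21, and the depth estimated from these steps was 170 M to 206 M reads per library. A count test was therefore left out.

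Names came from the RefSeq gene table (30507) and GENCODE (178), 293 had no name, and each of 23201 genes was represented by the transcript with the highest mean RPKM. All 9 libraries entered 1 limma fit (version 3.58.1, R 4.3.3) of genotype on log2(RPKM + 0.5), with moderated variances that follow the mean level, for the 12159 genes averaging 0.5 RPKM or more, with Benjamini-Hochberg adjustment over all of them and calls at an adjusted p below 0.05. Each library came from its own embryo, per the labels, so the p-values measure the spread between embryos. Exact permutation tests were two-sided. No libraries were duplicates: the SD of log2 differences within a group was at least 0.148.

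The members and lists were chosen with earlier results of these data known, and 242 of 244 list entries were matched (Cd68 and Ly6g were not analysed here). From each list up to 5 genes with the smallest adjusted p between homozygous and control libraries, and its first gene, could be named, as well as the 8 genes most correlated with the members; exceptions are marked, and some genes that this rule takes are left out of the text. Alternatives were other pseudocounts, filters, transcripts, scalings, covariates, weights and variance models, and leaving out each library. Leaving out homozygous library 3 and control library 1 together was added after seeing the data.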

Additional observations from a re-analysis of the deposited data

How the results depend on the processing

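In homozygous against control cortex, 5 of the 10 genes were called, and the count moved to 2 without homozygous library 3 or control library 1 and to 1 without both; leaving out single libraries gave 2 to 6. Over all genes the calls were 6537 with array weights, against 4170. In heterozygous against control cortex the count over all genes, 0, became 1 when only those groups were fitted and 2201 with array weights, and 0 to 1 with single libraries left out, and 0 of the 10 genes were called in any setting. In homozygous against heterozygous cortex the 4 called genes became 2 with a pseudocount of 0.1, 1 without a filter, 2 with only those groups fitted, 1 without both libraries and 1 to 5 with single libraries left out. The cause of these changes was not tested, and the fits that leave libraries out also rest on fewer libraries.

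Same-numbered libraries of different genotypes had correlations of -0.044 to 0.404, of which 2 of 9 pairs were over 0.1. Both of these were a homozygous and a control library, those numbered 1 (0.404) and 3 (0.322), while number 2 had 0.068. Homozygous and control libraries with different numbers had -0.44 to 0.096. Whether the numbers pair the libraries was not tested. With the replicate block, 4429 genes were called in homozygous against control cortex, 6 of the 10 in that comparison and 5 of the 10 against heterozygous cortex.

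Changes of sign, all in values that were not called, were these. Without both libraries, homozygous against control cortex gave -0.03 for Csf1r, -0.13 for Mrc1, -0.04 for Syk and -0.01 for Csf1, homozygous against heterozygous cortex -0.02 for Csf1r and -0.04 for Tyrobp, and heterozygous against control cortex -0.02 for Csf1r, 0.004 for Cx3cr1 and -0.02 for Fcer1g. With sex in the model, heterozygous against control cortex gave -0.04 for Csf1r and -0.13 for Tyrobp, and array weights gave -0.001 for Csf1r and -0.02 for Fcer1g, and -0.06 for Mrc1 in homozygous against control cortex. With single libraries left out, heterozygous against control values ran from -0.02 to 0.22 for Csf1r, from -0.07 to 0.04 for Cx3cr1, from -0.02 to 0.13 for Fcer1g and from -0.05 to 0.21 for Tyrobp; homozygous against heterozygous values from -0.02 to 0.13 for Csf1r, from -0.17 to 0.06 for P2ry12 and from -0.04 to 0.29 for Tyrobp; and homozygous against control values from -0.04 to 0.26 for Mrc1 and from -0.02 to 0.21 for Syk. Of the single values of the 10 genes under other settings, 583 kept direction and side of the threshold, 41 lost a call, 14 gained one and 19 changed sign.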

Other observations

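Low listed genes that did not pass the filter were fitted once without it, where 10.5% of all genes were called higher in homozygous than in control cortex and 12.8% lower, so the counts of calls given here lie near those of all genes. Of 13 microglia and macrophage genes, Cd48 (log2 change 0.42, adjusted p = 0.0101) and Runx1 (0.13, adjusted p = 0.0267) were then called higher in homozygous than in control cortex. Of 15 genes of the ITAM pathway, Inpp5d (0.24, adjusted p = 0.0112) and Blnk (0.21, adjusted p = 0.0118) were called higher. Among 9 genes listed for activated microglia, Tnf (0.08, adjusted p = 0.0327) was called higher. Of 19 low complement genes with a value above 0, the receptor C3ar1 (0.32, adjusted p = 0.00561) was called higher, and C8b (-0.12, adjusted p = 0.000927), Cfp (-0.23, adjusted p = 0.0408) and Csmd1 (-0.51, adjusted p = 0.000962) were called lower. These genes were chosen after their values were seen, and at such levels the added 0.5 RPKM makes the log2 change small.

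The neutrophil genes S100a8 and S100a9 stood apart in single libraries. S100a8 had 0.195, 1.73 and 0.208 RPKM in homozygous cortex, 0.404, 1.08 and 0.322 RPKM in heterozygous cortex and 2.96, 0.335 and 0.207 RPKM in control cortex. S100a9 had 0.719, 3.36 and 0.74 RPKM in homozygous cortex, 0.96, 1.12 and 0.732 RPKM in heterozygous cortex and 6.07, 0.371 and 0.321 RPKM in control cortex. Both were highest in control library 1, the library in which 5 of the 10 microglia and complement genes were lowest, and neither was called (adjusted p = 0.734 and 0.924).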
